A study of Mus musculus with 8 samples.

Results

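Macrophages of the transgenic mouse mammary gland were compared between 4 weeks and 48 hours after an inducible fibroblast growth factor receptor 1 (FGFR1) had been switched on. The comparison uses the 4 arrays titled as transgenic, 2 pools for each time, out of 8 arrays in all, and covers every gene that could be measured, 13083 in number. Both transgenic groups carried MMTV-iFGFR1, a construct whose mouse mammary tumour virus promoter is active in the epithelium of the gland and not in macrophages. The mice were females on the inbred FVB background, 6 weeks old at the start, and all received the dimerizer, a small molecule that joins the receptor molecules and so starts their signal. The 2 control groups were littermates without the transgene that received the dimerizer for the same 48 hours or 4 weeks, again with 2 pools each. The 4 weeks groups were thus older than the 48 hours groups, and time of activation and age cannot be told apart among transgenic pools alone. Glands were digested with collagenase, cells stained for Cd11b were sorted, and each array received RNA pooled from 3 mice. Cd11b is a surface integrin of macrophages that neutrophils, monocytes, natural killer cells and some dendritic cells also carry.

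The labels of transgenic 4 weeks pool 2 contradict each other. Its free-text description gives mice that lack the transgene, but the title, the source and the genotype all give MMTV-iFGFR1. It was used as transgenic. The medians of the gene lists in transgenic pools are given with and without it, some as a range over left-out pools. Differences of single genes are given both ways for some genes and only with it for the others. Its log2 signals correlated across genes with those of the 3 other transgenic arrays at r = 0.947 to 0.951 and with those of the 4 control arrays at r = 0.933 to 0.950, and these ranges overlap.

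Macrophages of the mammary gland sit along the ducts and in the fat pad, where they take part in branching, clear dying cells and respond to signals from the epithelium. FGFR1 is a receptor tyrosine kinase whose activation in mammary epithelium leads to hyperplastic growth of the gland, and macrophages recruited to such lesions secrete cytokines, chemokines and matrix enzymes. A pair of programs recurs below as gene groups: presentation of peptides on MHC class II molecules to helper T cells, which is set by the transactivator Ciita, and the antiviral response to type I interferon, in which secreted interferon switches on a large set of genes at once.

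The arrays hold RNA of macrophages by their markers. Csf1r, which receives the survival signal CSF1, gave a signal of 68311 and 76618 at 48 hours and 71036 and 75893 at 4 weeks in transgenic pools. Its log2 difference was 0.02 (SE 0.15, 95% interval −0.32 to 0.36), and −0.03 without transgenic 4 weeks pool 2. Adgre1, the F4/80 antigen of mouse macrophages, lay between 11140 and 14627 in the same 4 pools, with a log2 difference of 0.18 (SE 0.20). Itgam, the gene of Cd11b, was dim and gave 245 to 505. Its log2 difference was 0.405, and 0.085 without transgenic 4 weeks pool 2. Of 22 measured macrophage identity genes, 13 had a higher and 9 a lower mean at 4 weeks, with a median log2 difference of 0.03, or 0.00 with 11 higher without transgenic 4 weeks pool 2. The array medians ran from 96.2 to 126.7 signal units over the 8 arrays. Shortened RNA loses the 5′ end first. The 3′ over 5′ signal ratio of beta-actin was 6.84 and 11.4 at 48 hours and 8.0 and 7.75 at 4 weeks in transgenic pools. On the control arrays it was 7.99 to 37.0, with the 37.0 on control 4 weeks pool 2. With this ratio as a covariate, 7 genes passed at an adjusted p under 0.05 in limma in control pools, against 1 without it. Its part in the control medians of the gene lists was not tested.

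No gene passed the test between 4 weeks and 48 hours in transgenic pools. In limma, 0 of 13083 genes (0%) had a Benjamini-Hochberg adjusted p under 0.05 with a higher signal and 0 (0%) with a lower one, and the lowest adjusted p was 1.00. Unadjusted p-values lay under 0.05 for 285 genes or 2.18%, of which 150 (1.15%) were higher and 135 (1.03%) lower at 4 weeks, where 654.2 would be reached if p-values were uniform. Without transgenic 4 weeks pool 2 the 285 became 201. The transgenic arrays of 1 time were no more alike than those of different times. Their r was 0.949 between the 48 hours pools, 0.950 between the 4 weeks pools, and 0.947 to 0.961 between pools of different times. Control pools of a time were less alike, at r = 0.937 at 48 hours and 0.929 at 4 weeks. The fit took 1 spread per gene from all 8 arrays, so the 285 does not rest on the spread of transgenic pools alone. Of all genes, 48.4% had a higher mean at 4 weeks. Both 4 weeks pools lay above both 48 hours pools for 14.1% of genes and below them for 14.5%. On simulated data of this contrast, limma recovered 1.49% of changes of 2-fold, 42.1% of those of 4-fold and 69.5% of those of 8-fold. The simulation dealt the spreads of genes out at random, so bright genes could receive the spreads of dim ones. It therefore gives no recovery rate for genes of a given brightness. As no gene passed, everything that follows is given as values of 2 pools a time and not as a change that passed a test. With 2 against 2 pools, an exact permutation test of 1 gene cannot go below p = 0.333, two-sided. P-values rest on how much pools of 3 mice varied and say nothing of single animals. In RNA of sorted cells, fewer cells of a type and less RNA per cell cannot be told apart.

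Genes of MHC class II presentation had higher signals at 4 weeks. All 13 measured members of a list of 15 had a higher mean at 4 weeks, 9 of them had both 4 weeks pools above both 48 hours pools (14.1% of all genes do), and none passed the limma test over all genes. Their median log2 difference was 0.59, against −0.01 over all genes. It was 0.32, with 11 of 13 higher, without transgenic 4 weeks pool 2.

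Promoters of 3 of these genes are printed because they carry the Y box, a CCAAT-type element common to promoters of class II genes. Each line gives the 200 bases before the start of the gene, from RefSeq on build GRCm38.p6, 5′ to 3′ on the gene's strand, with the Y box letters CTGATTGG in capitals. H2-Aa lies on the minus strand at chr17:34287824-34288023, H2-Eb1 on the plus strand at chr17:34305667-34305866 and H2-Oa on the plus strand at chr17:34092179-34092378.
H2-Aa: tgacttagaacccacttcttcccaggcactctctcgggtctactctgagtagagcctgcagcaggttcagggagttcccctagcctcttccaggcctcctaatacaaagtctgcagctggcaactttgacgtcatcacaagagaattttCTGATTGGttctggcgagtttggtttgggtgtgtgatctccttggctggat
H2-Eb1: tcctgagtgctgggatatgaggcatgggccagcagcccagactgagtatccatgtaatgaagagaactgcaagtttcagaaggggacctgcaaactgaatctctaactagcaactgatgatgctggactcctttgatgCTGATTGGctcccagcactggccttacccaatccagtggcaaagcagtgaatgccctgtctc
H2-Oa: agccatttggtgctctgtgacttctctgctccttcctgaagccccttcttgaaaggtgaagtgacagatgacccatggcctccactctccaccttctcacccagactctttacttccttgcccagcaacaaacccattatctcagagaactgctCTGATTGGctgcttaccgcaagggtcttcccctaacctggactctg

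The first base of the Y box stood 51 bases before the start in H2-Aa, 62 in H2-Eb1 and 46 in H2-Oa, always on the strand of the gene. Searched on both strands, these 8 letters were in 3 of the 9 class II members with a promoter in the RefSeq table (33.3%) and in 1164 of all 32851 promoter windows of the same 200 bases (3.54%). A match is a description of the letters and not evidence that a factor binds there.

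H2-Ab1, the beta chain of the class II molecule I-A, gave a signal of 26796 and 18384 at 48 hours and 28984 and 45499 at 4 weeks. The higher 48 hours pool lay just under the lower 4 weeks pool, and pool 2 at 4 weeks stood well above the other 3. The log2 difference was 0.71 (SE 0.31, 95% interval 0.01 to 1.41), unadjusted p = 0.0471 in limma, and 0.39 without transgenic 4 weeks pool 2. H2-Aa, the alpha chain of I-A, gave 29726 and 23759, then 31786 and 52394. Its log2 difference was 0.62 (SE 0.32), and 0.26 without transgenic 4 weeks pool 2. Cd74, the invariant chain that escorts class II molecules to the endosome, gave 26742 and 17891, then 30525 and 34834. Its log2 difference was 0.58 (SE 0.30), and 0.48 without that pool. Neither gene's pools overlapped between the times. H2-Eb1, the beta chain of I-E, gave 1998 and 1398 at 48 hours and 2097 and 4308 at 4 weeks, a log2 difference of 0.84 (SE 0.46) and of 0.32 without the second 4 weeks pool.

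The dimmer members pointed the same way. H2-DMb2, which helps to load peptides, gave 188 and 80.6, then 249 and 358, a log2 difference of 1.08 (SE 0.52). H2-Oa, a modulator of that loading, gave 357 and 322, then 432 and 629, a log2 difference of 0.58 (SE 0.33). Ciita, the transactivator of the group, was named after its values were seen: it gave 100 and 69.3, then 142 and 205, a log2 difference of 0.82 (SE 0.47). The 4 members whose pools overlapped, named for that reason, were H2-Ob, a partner of H2-Oa, at a log2 difference of 0.60, the co-stimulatory ligands Cd86 at 0.30 and Cd80 at 0.21, and Ctss, the protease that trims the invariant chain, at 0.13. Without transgenic 4 weeks pool 2 these 4 stood at 0.06, −0.17, 0.44 and −0.03. H2-DMb2, H2-Oa and Ciita then stood at 0.84, 0.32 and 0.60. For Ciita and H2-DMb2 the gene's other probe set had the opposite sign. Within groups the pools were not alike: at 4 weeks 12 of 13 members were higher in pool 2 than in pool 1, and at 48 hours only 2 of 13 were. Relative to the mean of 8 arrays, the list's log2 level, a median over its members, was −0.05 and −0.44 at 48 hours and 0.08 and 0.56 at 4 weeks. Control pools of the same list stood at 0.39 and −0.31, then −0.35 and 0.07, and their median difference was −0.17 with 3 of 13 higher. That control median was 0.05 without control 4 weeks pool 1 and −0.39 without pool 2. The median of the differences between the transgenic and the control time course was 0.76, and 0 of 13 members passed the test of that difference in limma.

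**Figure D1:**
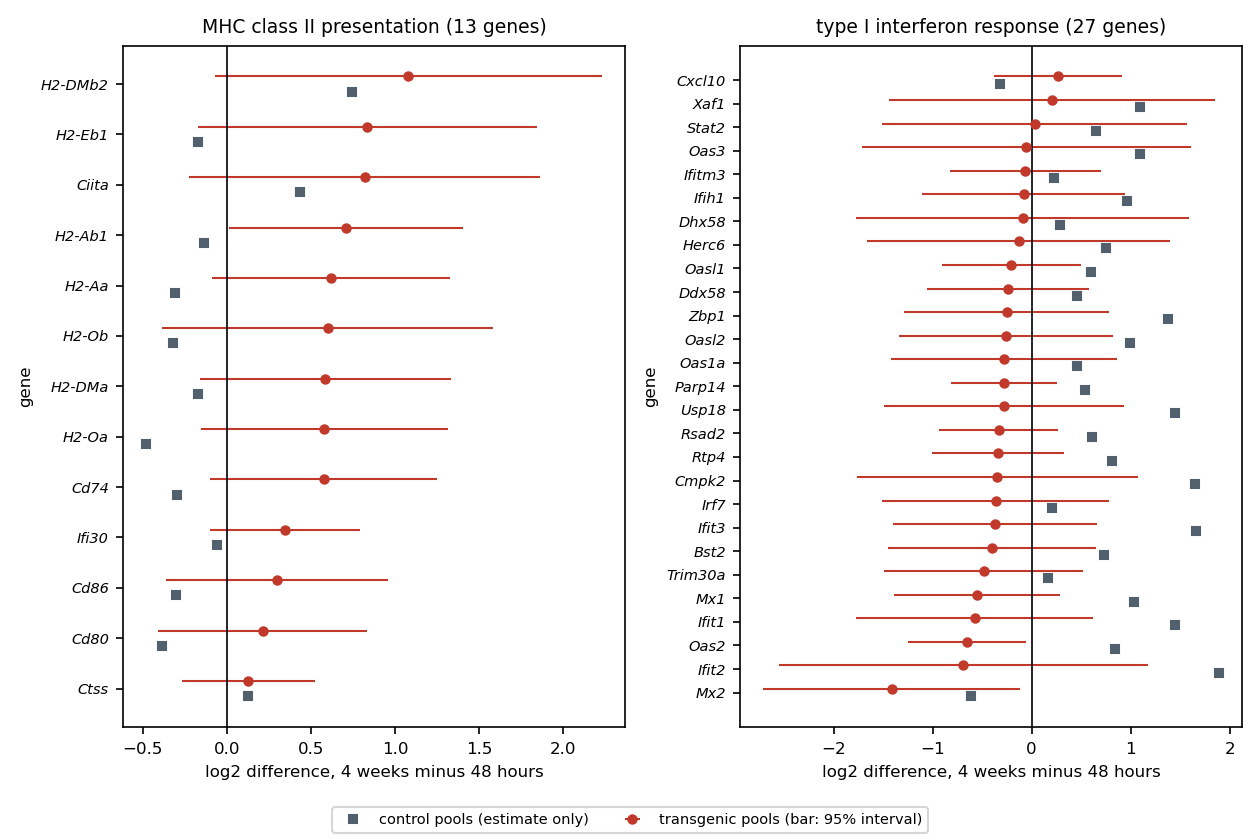
Log2 difference between 4 weeks and 48 hours (x axis) of each measured gene (y axis) of the MHC class II list (left, 13 genes) and the type I interferon list (right, 27 genes). Red circles with bars are transgenic pools with 95% intervals and grey squares are control pools; all 13 class II circles lie to the right of 0, and 24 of 27 interferon circles lie to the left.

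Genes of dendritic cells, relatives of macrophages that specialise in presenting antigen, had higher signals too. Of 16 measured markers, 12 had a higher mean at 4 weeks. Both 4 weeks pools lay above both 48 hours pools for 5 (14.1% of all genes) and below for 1 (14.5% of all genes). The median log2 difference was 0.37 (0.36 without transgenic 4 weeks pool 2). Itgax, the integrin CD11c of dendritic cells and some macrophages, gave 814 and 840 at 48 hours and 1443 and 2164 at 4 weeks. The pools did not overlap, and the log2 difference was 1.07 (SE 0.41), unadjusted p = 0.0245 in limma, or 0.78 without the second 4 weeks pool. Cd209a, a lectin of monocyte-derived dendritic cells, gave 1537 and 1046, then 2195 and 2916, a log2 difference of 0.98 (SE 0.39), unadjusted p = 0.0303 in limma. The pools of Cd209a did not overlap either.

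Ccr7, the receptor that guides dendritic cells to lymph nodes, gave 736 and 166, then 602 and 1204, so that its pools overlapped. Irf4, a transcription factor of one dendritic lineage, gave 1529 and 1544, then 1639 and 3708, and its log2 difference of 0.67 (SE 0.44) shrank to 0.09 without the second 4 weeks pool. Itgae, the integrin CD103, gave 278 and 227, then 361 and 369. The member with both 4 weeks pools below was Fscn1, an actin bundler of mature dendritic cells, named after its values were seen, at a log2 difference of −0.32 (SE 0.59). The summed signal of the 16 dendritic markers was 62810 and 60380 at 48 hours and 61160 and 71980 at 4 weeks, so the sum of the second 4 weeks pool alone stood apart. The part of such cells in the class II values was not tested. In control pools 5 of the 16 markers had a higher mean at 4 weeks (55.0% of all genes), with a median log2 difference of −0.23. That control median was −0.55 without control 4 weeks pool 2 and 0.09 without pool 1.

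Genes of matrix remodelling had higher signals at 4 weeks in most members. Of 22 measured, 17 had a higher mean. Both 4 weeks pools lay above both 48 hours pools for 9 (14.1% of all genes) and below for 0 (14.5% of all genes). The median log2 difference was 0.44, or 0.21 without transgenic 4 weeks pool 2. Fn1, which encodes the matrix protein fibronectin, gave 20316 and 11861 at 48 hours and 22498 and 23285 at 4 weeks. The 4 weeks pools were close to each other and above both earlier pools, which were far apart. The log2 difference was 0.56 (SE 0.24, 95% interval 0.03 to 1.09), unadjusted p = 0.04 in limma, and 0.53 without the second 4 weeks pool. Mmp12, the macrophage elastase, gave 208 and 217, then 394 and 628, a log2 difference of 1.12 (SE 0.38), unadjusted p = 0.0137 in limma, and 0.81 without that pool. The 48 hours pools of Mmp12 were close together and well below both later ones.

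Mmp3, the matrix enzyme stromelysin, gave 675 and 428, then 820 and 945, and Timp1, an inhibitor of such enzymes, gave 549 and 328, then 586 and 754. Neither gene's pools overlapped, with log2 differences of 0.68 (SE 0.35) and 0.61 (SE 0.32). In control pools the log2 differences were 0.63 for Mmp3 and −0.86 for Timp1. Adam8, a membrane protease of leukocytes, gave 1941 and 1833, then 2174 and 2903, a log2 difference of 0.41 (SE 0.33). Mmp2, a gelatinase mostly of fibroblasts, overlapped: it gave 3426 and 4274, then 8704 and 3358, and its log2 difference of 0.50 turned to 1.18 without the second 4 weeks pool and to −0.19 without the first. Among fibroblast markers, Bgn, the proteoglycan biglycan, gave 657 and 995, then 1235 and 2357, and Fbln1, a matrix fibulin, gave 272 and 183, then 432 and 485. Their log2 differences were 1.05 (SE 0.42) and 0.94 (SE 0.34), while the 20 fibroblast markers as a whole had a median of 0.05 with 11 higher. That median was 0.19 without the second 4 weeks pool and −0.13 without the first. The summed fibroblast signal was 121200 and 126000 at 48 hours and 143300 and 114900 at 4 weeks, and the ranges overlapped. The part of fibroblasts in the matrix values was not tested.

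Inflammatory cytokines and targets of NF-kB, the transcription factor of the inflammatory response, had modestly higher signals. Of 26 measured, 20 had a higher mean at 4 weeks. Both 4 weeks pools lay above both 48 hours pools for 11 (14.1% of all genes) and below for 0 (14.5% of all genes). The median log2 difference was 0.19. Without transgenic 4 weeks pool 2 the median was 0.08 and 16 of 26 were higher. Il1b, interleukin 1 beta, gave 14617 and 12146 at 48 hours and 15582 and 28089 at 4 weeks. Only pool 2 at 4 weeks stood well above the other 3, and the log2 difference of 0.65 (SE 0.29), unadjusted p = 0.0486 in limma, was 0.23 without it. Il1rn, the antagonist of the interleukin 1 receptor, gave 2097 and 1292, then 2249 and 4126. Its log2 difference was 0.88 (SE 0.40), and 0.44 without transgenic 4 weeks pool 2.

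Malt1, a protease that relays signals to NF-kB, gave 524 and 653, then 756 and 1243, and Tnfaip3, which ends NF-kB signals, gave 12995 and 14816, then 15759 and 24085. In both, pool 2 at 4 weeks was the highest and no pools overlapped. Il10, an anti-inflammatory cytokine, gave 1021 and 913, then 1080 and 1835. Its log2 difference was 0.53 (SE 0.29), and 0.16 without transgenic 4 weeks pool 2. Il12b, a subunit of interleukins 12 and 23, was dim at 84.2 and 22.1, then 85.3 and 194. On this list 21 of 26 members were higher in pool 2 than in pool 1 at 4 weeks, against 13 of 26 at 48 hours. The levels of the list relative to 8 arrays were −0.14 and −0.17 at 48 hours and −0.14 and 0.40 at 4 weeks. Pool 1 of the later time thus stood close to both earlier pools and pool 2 stood apart. In control pools 2 of 26 members had a higher mean at 4 weeks (55.0% of all genes), with a median log2 difference of −0.27. That control median was −0.69 without control 4 weeks pool 2 and −0.0155 without pool 1.

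Chemokines and their receptors differed less. Of 17 CC chemokine genes, 13 had a higher mean at 4 weeks with a median log2 difference of 0.11 (0.08 without transgenic 4 weeks pool 2), and of 14 CXC genes 10 with a median of 0.13, or −0.14 without that pool. Cxcl13, which attracts B cells, gave 370 and 175 at 48 hours and 600 and 1335 at 4 weeks. Its pools did not overlap, and the log2 difference was 1.69 (SE 0.42), or 1.14 without the second 4 weeks pool. The unadjusted p = 0.00226 in limma was among the smallest of all genes. Control pools of Cxcl13 were higher at 4 weeks too, without overlap. They went from 328 and 386 to 730 and 730, a log2 difference of 0.98 (SE 0.42). Ccr1, a receptor of inflammatory chemokines, gave 2549 and 2090, then 3420 and 3585, a log2 difference of 0.59 (SE 0.31). Ccl17, which attracts T cells, gave 471 and 452, then 714 and 1052, and Ccl3, a chemokine of inflammation, gave 9008 and 9327, then 8362 and 15007. Ccl3 overlapped between the times and its difference of 0.29 turned to −0.13 without the second 4 weeks pool. Of 23 immediate early genes 16 had a higher mean, with a median of 0.10, or 0.12 without that pool. Fosb, a subunit of the AP-1 factor, gave 3234 and 3064, then 4156 and 4953, and the nuclear receptor Nr4a1 gave 8722 and 9656, then 12336 and 10716, without overlap in either gene.

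Genes of the type I interferon response had lower signals at 4 weeks. Of 27 measured members of a list of 30, 24 had a lower mean, 10 had both 4 weeks pools below both 48 hours pools (14.5% of all genes do), 0 had them above, and none passed over all genes in limma. The median log2 difference was −0.28, and it was −0.145 with 11 of 27 higher without transgenic 4 weeks pool 2. The promoters printed here carry the core of the interferon-stimulated response element, the sequence that interferon-activated factors bind. These are the 3 members with the smallest p among those with a match, and each line gives the 200 bases before the start from RefSeq on build GRCm38.p6, 5′ to 3′ on the gene's strand. The core searched was GAAA, any 2 bases and GAAA again, on either strand, and capitals mark it here as TTTC, 2 bases and TTTC, its form on the opposite strand. Rsad2 lies on the minus strand at chr12:26456453-26456652, Trim30a on the minus strand at chr7:104465194-104465393 and Ifit1 on the plus strand at chr19:34640689-34640888.
Rsad2: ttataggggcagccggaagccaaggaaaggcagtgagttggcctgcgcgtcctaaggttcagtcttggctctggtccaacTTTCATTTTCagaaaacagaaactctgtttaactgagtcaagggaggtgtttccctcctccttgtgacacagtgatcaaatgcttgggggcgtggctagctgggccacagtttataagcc
Trim30a: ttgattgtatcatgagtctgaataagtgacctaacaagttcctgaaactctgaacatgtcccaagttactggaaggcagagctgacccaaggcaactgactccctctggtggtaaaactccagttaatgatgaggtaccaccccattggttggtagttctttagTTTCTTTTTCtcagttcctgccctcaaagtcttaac
Ifit1: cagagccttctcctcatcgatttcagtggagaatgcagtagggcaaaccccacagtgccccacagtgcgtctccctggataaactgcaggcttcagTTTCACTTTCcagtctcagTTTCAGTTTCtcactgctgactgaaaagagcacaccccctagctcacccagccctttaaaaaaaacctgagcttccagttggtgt

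The match began 120 bases before the start in Rsad2, 36 in Trim30a, and 104 and 85 in Ifit1. The core was in 7 of the 19 interferon members with a promoter in the RefSeq table (36.8%) and in 746 of all 32851 windows (2.27%), and no match in a window says only that these letters are not in it.

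Oas2, which makes the messenger that activates RNase L, gave 3102 and 3364 at 48 hours and 2675 and 1562 at 4 weeks. Both later pools were lower, pool 2 by more. The log2 difference was −0.65 (SE 0.27, 95% interval −1.25 to −0.05), unadjusted p = 0.0353 in limma, and −0.27 without that pool. Mx1, an antiviral GTPase, gave 596 and 584, then 389 and 396, with pools of 1 time close to each other and a log2 difference of −0.55 (SE 0.38). Mx2, its relative, was dim at 82.6 and 140, then 26.5 and 16.8, a log2 difference of −1.41 (SE 0.58).

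Rsad2, which encodes the antiviral enzyme viperin, overlapped between the times at 6026 and 9388, then 6359 and 5582. Trim30a, an interferon-induced ubiquitin ligase family member, gave 5150 and 4828, then 4465 and 2825, and Ifit1, which binds viral RNA caps, gave 1438 and 1699, then 1212 and 890; both were chosen for their promoters. Their log2 differences were −0.49 (SE 0.45) and −0.58 (SE 0.54), wide for the size of the differences. Without transgenic 4 weeks pool 2 Trim30a stood at −0.16 and Ifit1 at −0.36. Parp14, an ADP-ribosyltransferase, gave 8497 and 7952, then 7008 and 6525, and Rtp4, an interferon-induced chaperone of receptors, gave 6073 and 8482, then 5676 and 5653. Both had every 4 weeks pool below every 48 hours pool, at −0.28 (SE 0.24) and −0.34 (SE 0.30). Interferon-inducible GTPases, which attack vacuoles of microbes, had 7 of 9 lower with a median of −0.17, which turned to 0.06 with 5 of 9 higher without the second 4 weeks pool. Iigp1 gave 5519 and 7786, then 6150 and 4683, Gbp6 gave 576 and 1288, then 601 and 400, and both overlapped.

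The interferon list stood at −0.06 and −0.09 in the 48 hours pools and −0.16 and −0.69 in the 4 weeks pools, relative to the mean of 8 arrays, so that pool 2 carried most of the difference. At 4 weeks 3 of 27 members were higher in pool 2 than in pool 1, against 13 of 27 at 48 hours. In control pools the list went the other way, from −0.52 and 0.21 to 1.33 and 0.11, with 25 of 27 higher (55.0% of all genes) and a median difference of 0.75. Single arrays set the size of that control median, which was 0.18 without control 4 weeks pool 1 and 1.56 without pool 2. For Oas2 the difference between the transgenic and the control time course was −1.49 (SE 0.38), unadjusted p = 0.0027, adjusted p = 0.992 in limma.

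**Figure D2:**
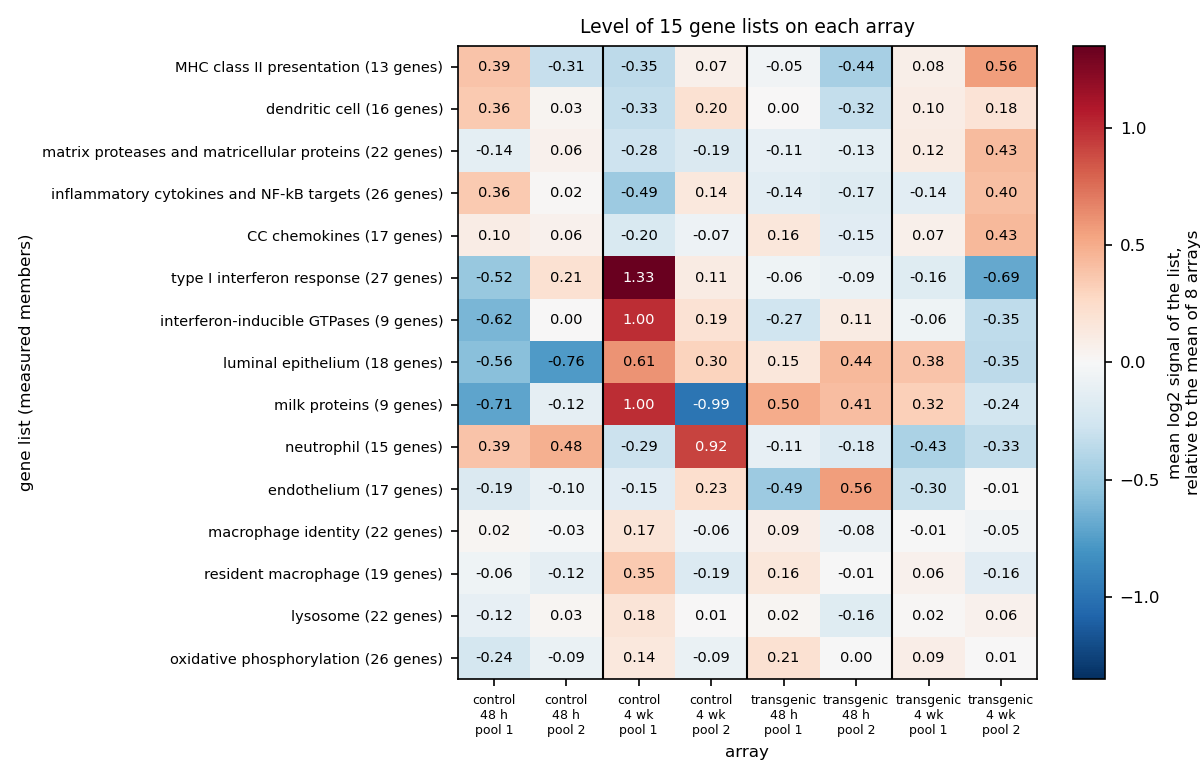
Level of 15 gene lists (rows, with the number of measured genes) on each of the 8 arrays (columns, pools side by side within a group). A level is the median, over the list's genes, of the log2 signal relative to the gene's mean of the 8 arrays. The colour bar labels this median as a mean. Transgenic 4 weeks pool 2 stands at 0.56 for MHC class II and −0.69 for the interferon response, and control 4 weeks pool 1 at 1.33 for the interferon response.

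Markers of epithelium differed between the transgenic pools as well. Of 18 luminal epithelial genes, which mark the inner layer of the ducts, 12 had a lower mean at 4 weeks. Both 4 weeks pools lay below both 48 hours pools for 7 (14.5% of all genes) and above for 3 (14.1% of all genes). The median log2 difference was −0.38. Without transgenic 4 weeks pool 2 the median was −0.08 with 8 of 18 higher. Krt8, a keratin of simple epithelia, gave 2747 and 3692 at 48 hours and 2549 and 1466 at 4 weeks, and the lower value was again that of pool 2. The log2 difference was −0.71 (SE 0.35) and −0.32 without it. Krt19, another such keratin, gave 917 and 948, then 755 and 312. Its log2 difference was −0.89 (SE 0.44), and −0.29 without transgenic 4 weeks pool 2.

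Prom1, a membrane protein of luminal progenitors, gave 323 and 678, then 227 and 239, a log2 difference of −0.93 (SE 0.38), unadjusted p = 0.0348 in limma. Foxa1, a factor of hormone-sensing luminal cells, gave 450 and 557, then 326 and 246, a log2 difference of −0.76 (SE 0.34). Neither overlapped, and both stayed low without pool 2, at −0.96 and −0.57. Pgr, the progesterone receptor, overlapped at 421 and 623, then 456 and 195. The 3 members with both later pools above were the junction protein Cldn3 and the epithelial factors Elf3 and Elf5, named after their values were seen, at 1.05 (SE 0.77), 0.46 (SE 0.34) and 0.49 (SE 0.64). The summed luminal signal was 14820 and 16020 at 48 hours and 14290 and 8760 at 4 weeks, and of 9 milk protein genes 6 were lower with a median of −0.12, or −0.05 without that pool and 0.01 without transgenic 48 hours pool 1. Epithelial RNA thus differed between the pools that carry the class II, cytokine and interferon values, and its part in them was not tested.

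Markers of neutrophils, which share Cd11b, were mostly lower. Of 15 measured, 11 had a lower mean at 4 weeks. Both 4 weeks pools lay below both 48 hours pools for 4 (14.5% of all genes) and above for 1 (14.1% of all genes). The median log2 difference was −0.32, or −0.22 without transgenic 4 weeks pool 2. Ltf, lactoferrin, which granulocytes and mammary epithelium both make, gave 620 and 866 at 48 hours and 367 and 408 at 4 weeks. The 4 weeks pools were close together and the 48 hours pools further apart, without overlap between the times. The log2 difference was −0.87 (SE 0.29), unadjusted p = 0.0117 in limma, and −0.94 without the second 4 weeks pool. S100a8 and S100a9, the subunits of calprotectin, gave 2779 and 3336, then 2125 and 1431, and 1075 and 1162, then 757 and 499. Their log2 differences were −0.79 (SE 0.47) and −0.83 (SE 0.46). Chil3, a chitinase-like protein of myeloid cells, gave 836 and 1364, then 617 and 661. The summed neutrophil signal was 13730 and 14560 at 48 hours and 11720 and 11460 at 4 weeks, without overlap.

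Monocyte markers, whose cells carry Cd11b too, were mostly lower as well. Of 14 measured, 10 had a lower mean at 4 weeks. Both 4 weeks pools lay below both 48 hours pools for 4 (14.5% of all genes) and above for 2 (14.1% of all genes). The median log2 difference was −0.20, or −0.29 without transgenic 4 weeks pool 2. The levels of the list were −0.07 and −0.09 at 48 hours and −0.33 and −0.30 at 4 weeks, without overlap, and close together within each time. The summed signal did overlap, at 62160 and 51090, then 63190 and 55700. The 2 members above were Fn1 and Nr4a1, described with the matrix and immediate early genes, and Chil3 was among the 4 below.

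Lymphoid and eosinophil markers gave small groups with mixed signs. Of 15 T and NK cell genes 8 were higher with a median of 0.09, and of 0.09 without transgenic 4 weeks pool 2, but −0.20 without transgenic 48 hours pool 2 and −0.10 without transgenic 4 weeks pool 1. Cd2, an adhesion receptor of T and NK cells, gave 607 and 397, then 754 and 906, while Cd8a, a co-receptor of T cells and of one dendritic lineage, gave 2568 and 1250, then 796 and 991. Neither overlapped, and their log2 differences were 0.71 (SE 0.31) and −0.99 (SE 0.47). Jchain, the joining chain of antibodies made by plasma cells, gave 280 and 84.1, then 451 and 404, in a B cell list with 7 of 10 lower and a median of −0.21, or −0.03 without the second 4 weeks pool. Siglecf, a lectin of eosinophils and some macrophages, gave 881 and 1137, then 695 and 552, a log2 difference of −0.67 (SE 0.34). Its list of 9 measured eosinophil and mast cell genes had 4 higher and 5 lower. The median of that list was −0.02, or 0.15 without transgenic 4 weeks pool 2.

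**Figure D3:**
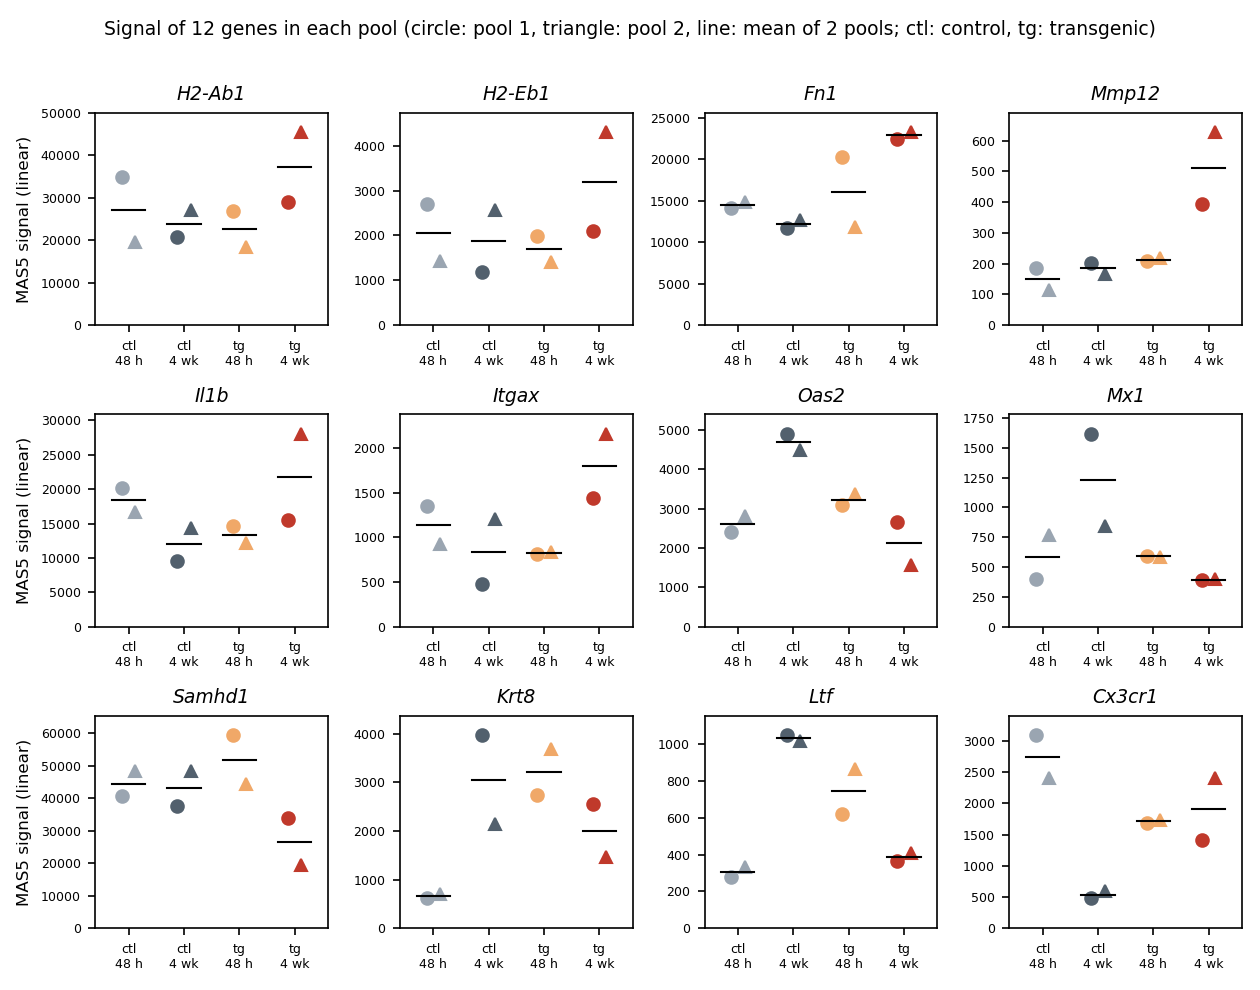
MAS5 signal on a linear axis of 12 genes in the 4 groups, with pool 1 as circles, pool 2 as triangles and the mean of 2 pools as a line. Oas2, Mx1, Samhd1 and Ltf have both transgenic 4 weeks pools below both transgenic 48 hours pools; H2-Ab1, H2-Eb1, Fn1, Mmp12, Il1b and Itgax have them above, with pool 2 the higher, and Cx3cr1 overlaps in transgenic pools.

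The genes with the smallest p-values were mostly dim. Of the 150 higher and 135 lower genes at an unadjusted p under 0.05, 15 and 10 had a mean transgenic signal of 2000 or more, against 2453 of all 13083 genes (18.7%). In 69 and 64 of them (46% and 47.4%) the lower of the 2 group means was under 100, against 20.1% of all genes. Pms2, a mismatch repair protein, had the smallest p: it gave 286 and 202 at 48 hours and 32.4 and 22.6 at 4 weeks. The pools of a time were close and far from those of the other, and the log2 difference was −2.22 (SE 0.40), unadjusted p = 0.000194, adjusted p = 1.00 in limma. The signals of 4 weeks lay well under the array medians, and of the gene's 2 other probe sets 1 had the same sign. Zdhhc12, a palmitoyltransferase, gave 387 and 314, then 51.8 and 51.1, a log2 difference of −2.21 (SE 0.40). Mon1a, which takes part in vesicle fusion, gave 760 and 715, then 232 and 260, a log2 difference of −1.48 (SE 0.28).

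Il17re, a subunit of an interleukin 17 receptor, had the most negative difference of all genes, from 1353 and 946 to 75.5 and 166, a log2 difference of −3.01 (SE 0.73). Ikbke, a kinase of the innate immune response, gave 192 and 232, then 53.9 and 55.4. On the other side, Gprin1, a partner of G proteins, gave 18.3 and 15.6, then 191 and 213, a log2 difference of 2.29 (SE 0.45), with both other probe sets of the same sign. It was 1.31 with the offset at the median of all values, and 0.61 with no offset, where another probe set of the gene was the brightest. Frat2, a regulator of Wnt signalling, had the most positive difference at 2.50 (SE 0.53), from 28.6 and 7.9 to 206 and 278. The 48 hours signals of Gprin1 and Frat2 lay under 30.8, the offset added to every signal before the log, which therefore sets the size of both differences. Kif13b, a motor protein, gave 284 and 646, then 1352 and 1150, and Hcls1, an adaptor of blood cells, 143 and 179, then 512 and 416. Ltb4r1, the leukotriene B4 receptor, gave 501 and 328, then 900 and 950, a log2 difference of 1.13 (SE 0.34).

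Among bright genes, Samhd1, a nuclease that limits the cell's nucleotides and blocks retroviruses in myeloid cells, had the smallest p. It gave 59452 and 44421 at 48 hours and 33997 and 19443 at 4 weeks. Both later pools were below both earlier ones, and the log2 difference was −1.0 (SE 0.27, 95% interval −1.59 to −0.41), unadjusted p = 0.00353 in limma, or −0.60 without transgenic 4 weeks pool 2. Of its 4 other probe sets, 3 had the same sign. Ndufv2, a subunit of respiratory complex I, gave 6917 and 7528, then 14642 and 10083, a log2 difference of 0.75 (SE 0.21). Its control pools had a log2 difference of 1.13 (SE 0.21). The gene's 2 other probe sets had the opposite sign in transgenic pools. The 26 genes of oxidative phosphorylation had a median of −0.04, or −0.03 without transgenic 4 weeks pool 2 and 0.09 without transgenic 48 hours pool 1.

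Birc3, an inhibitor of apoptosis and NF-kB target, gave 8526 and 7964, then 11800 and 12160, with the pools of a time close together. Its log2 difference of 0.54 (SE 0.20) was 0.00 when the gene's probe sets were averaged, and its other probe set had the opposite sign. Ebi3, a subunit of interleukins 27 and 35, gave 1572 and 1659, then 2302 and 2913, a log2 difference of 0.67 (SE 0.25). Fcrls, an Fc receptor-like protein of macrophages, gave 19582 and 14448, then 21674 and 25262. Flna, an actin crosslinker, gave 2128 and 1669, then 2692 and 3848, and Txn2, the mitochondrial thioredoxin, 3722 and 3550, then 6376 and 4574. The pools of these bright genes did not overlap. Lower bright genes included Parp1, a DNA damage sensor, at −0.68 (SE 0.29), and Pank3, an enzyme of coenzyme A synthesis, at −0.51 (SE 0.22). Without transgenic 4 weeks pool 2 they stood at −0.34 and −0.46. Of their other probe sets, however, 1 of 3 and 0 of 1 had the same sign.

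**Figure D4:**
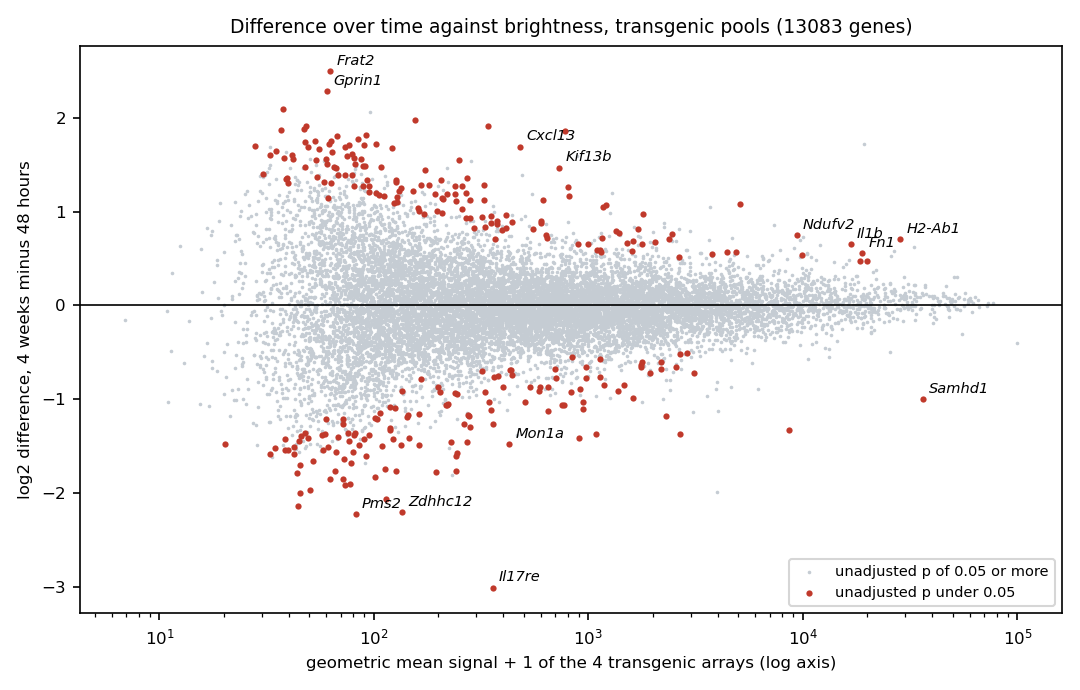
Log2 difference between 4 weeks and 48 hours in transgenic pools (y axis) against the geometric mean signal of the 4 arrays (x axis, log scale) for 13083 genes. Red points are the 285 genes at an unadjusted p under 0.05, most of them on the dim left side; Samhd1, Fn1, H2-Ab1 and Il1b are among the few bright ones.

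Genes of the FGF pathway did not move together. Of 16 measured, 7 were higher and 9 lower at 4 weeks, with a median log2 difference of −0.03, or −0.07 without transgenic 4 weeks pool 2. Fgfr1, whose inducible form sits in the epithelium, gave 1234 and 1150, then 1318 and 1235, a log2 difference of 0.10 (SE 0.43); the probe sets may not see the construct, so this does not check it. Fgfr4, a related receptor, was dim at 58.2 and 85.0, then 249 and 206, without overlap, and its log2 difference was 1.34 (SE 0.41), unadjusted p = 0.00848 in limma, with both other probe sets of the same sign. Spry4, a feedback inhibitor of the pathway, gave 106 and 188, then 22.7 and 58.9, a log2 difference of −1.32 (SE 0.66). Dusp6, a phosphatase induced by the pathway, overlapped at 1642 and 1226, then 1433 and 2576, and Fgfr2 gave 615 and 592, then 562 and 417. Ptn, the growth factor pleiotrophin, gave 1215 and 1792, then 830 and 890, a log2 difference of −0.76 (SE 0.31), unadjusted p = 0.0347 in limma.

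Probe sets of a gene did not always point one way. For Rsad2, Il17re, Txn2, Ptn, Fbln1 and Cd80, 1 of 2 other probe sets had the sign of the one used, and for Cldn3 and Fscn1 none did.

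Groups tied to the basic work of macrophages had medians near 0 in transgenic pools. The median log2 difference was −0.14 for 19 genes of resident macrophages with 13 lower, 0.08 for 22 lysosomal genes with 17 higher, −0.02 for 22 genes of apoptotic cell uptake, 0.03 for 18 Fc receptor genes, 0.07 for 18 ribosomal protein genes and 0.02 for 15 genes of MHC class I processing. Without transgenic 4 weeks pool 2 the median of the resident macrophage genes turned to 0.07 with 10 of 19 higher. Their control median was 0.21 with 15 of 19 higher, and −0.04 without control 4 weeks pool 1. The median of their differences between the time courses was −0.33, with 17 of 19 lower. For MHC class I processing the control median was 0.385 with 15 of 15 higher, and 0.183 without control 4 weeks pool 1. Over the other 5 of these lists, leaving out any 1 transgenic pool gave medians between −0.09 and 0.16, and the lysosomal median alone kept its sign throughout. Cd163, the haemoglobin scavenger receptor of resident macrophages, gave 21276 and 19994 at 48 hours and 17434 and 17391 at 4 weeks, and Maf, a transcription factor of macrophages, gave 25087 and 21986, then 20084 and 19158. Both had the later pools below the earlier ones by small margins, at −0.24 (SE 0.17) and −0.26 (SE 0.26). Cd14, the co-receptor for lipopolysaccharide, overlapped at 49269 and 42064, then 48753 and 64929. Axl, a receptor for dying cells, gave 487 and 324, then 571 and 795, a log2 difference of 0.72 (SE 0.33), and Hk2, the inducible hexokinase of glycolysis, gave 1565 and 1285, then 2233 and 2254, a log2 difference of 0.65 (SE 0.25). Of 36 cell division genes 24 were lower with a median of −0.145, but single pools set that direction: the median was 0.06 with 21 of 36 higher without transgenic 4 weeks pool 2 and 0.10 without transgenic 48 hours pool 1, against −0.45 without transgenic 48 hours pool 2. Cdk1, the mitotic kinase, gave 2328 and 699, then 663 and 632, so that 1 pool at 48 hours stood apart from the other 3.

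The control littermates show what the same interval gave without the transgene, and share no array with the transgenic comparison. In control pools 1 gene passed in limma, lower at 4 weeks (0.00764%), and 0 higher (0%), while 806 genes (6.16%) had an unadjusted p under 0.05, 443 higher (3.39%) and 363 lower (2.77%), and 55.0% of all genes had a higher mean at 4 weeks. Both 4 weeks pools lay above both 48 hours pools for 18.0% of genes and below for 13.7%. The gene was F5, coagulation factor V, with an adjusted p of 0.0366 in limma, which in control pools went from 5244 and 7843 to 1046 and 1427. Without any 1 of the 8 pools no gene passed in control pools, except that 7 did without control 4 weeks pool 2. In transgenic pools F5 gave 3608 and 3913, then 3177 and 3411, a log2 difference of −0.19 (SE 0.26). The difference between the time courses was 2.17 (SE 0.36), unadjusted p = 0.000123, adjusted p = 0.365 in limma. The 806 unadjusted calls in control pools and the 285 in transgenic pools used the same spread per gene, taken from all 8 arrays. Neither count thus measures its own pools alone.

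Tested directly, 0 of 13083 genes passed with a higher (0%) or lower (0%) difference between the transgenic and the control time course, with a lowest adjusted p of 0.19 in limma, and 616 (4.71%) had an unadjusted p under 0.05, 279 higher (2.13%) and 337 lower (2.58%). The difference was above 0 for 45.7% of genes. Cx3cr1, which binds the chemokine fractalkine, gave 1692 and 1732, then 1409 and 2408 in transgenic pools, which overlap. In control pools it went from 3088 and 2400 to 488 and 591, a log2 difference of −2.28. The difference between the time courses was 2.38 (SE 0.42), unadjusted p = 0.000173, adjusted p = 0.365 in limma. Med18, a subunit of the Mediator complex, gave 558 and 465, then 1119 and 1421 in transgenic pools and went from 884 and 1463 to 280 and 404 in control pools. That difference between the time courses was 2.93 (SE 0.46), adjusted p = 0.335 in limma.

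Several genes ran the opposite way. Zdhhc12 had the lowest adjusted p of the test, 0.19 in limma: its control pools went from 109 and 56.0 to 433 and 458 while the transgenic pools of 4 weeks lay below those of 48 hours, a difference of −4.32 (SE 0.56). Ltf went from 277 and 331 to 1048 and 1017 in control pools, a difference of −2.54 (SE 0.40), adjusted p = 0.335 in limma. Krt8 went from 625 and 702 to 3965 and 2137 in control pools, a difference of −2.80 (SE 0.50), adjusted p = 0.365 in limma. For Ltf and Krt8 the control pools of 48 hours were the lowest of all 8 pools. Of the 18 luminal epithelial genes, 14 had both control 4 weeks pools above both control 48 hours pools (18.0% of all genes). Their control median was 1.18, or 0.915 without control 4 weeks pool 1 and 1.45 without pool 2. Tpst1, which adds sulphate to tyrosines, gave 1168 and 1075, then 620 and 438 in transgenic pools, against 506 and 504, then 1462 and 1059 in control pools, a difference of −2.31 (SE 0.40). Mlph, an adaptor of melanosome transport, gave 202 and 228, then 128 and 127, against 46.7 and 12, then 322 and 440, a difference of −3.46 (SE 0.63). Its control pools of 48 hours were the lowest of all 8 as well. Across all genes the log2 differences of the transgenic and control time courses correlated at r = −0.05, and of 38 genes with an unadjusted p under 0.05 in both, 13 had the same direction. Both figures are across genes, which do not count as replicates, and carry no p-value.

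**Figure D5:**
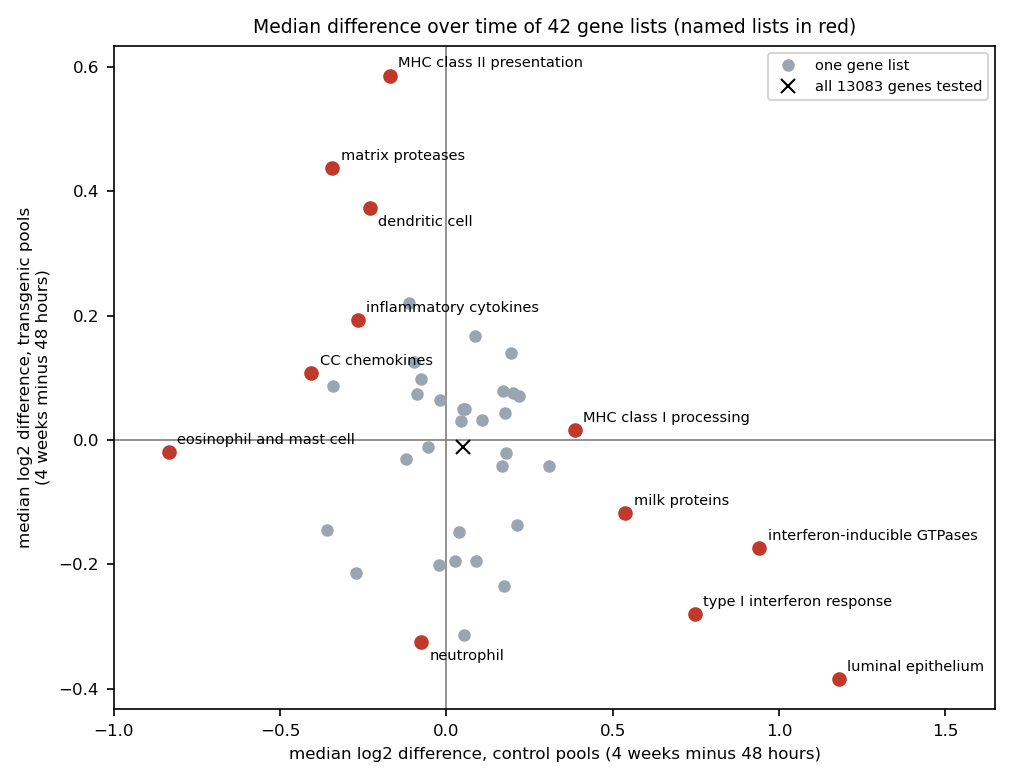
Median log2 difference between 4 weeks and 48 hours of 42 gene lists in transgenic pools (y axis) against control pools (x axis), with lists named in red and all genes as a cross. MHC class II stands at 0.59 and −0.17, matrix proteases at 0.44 and −0.34, the interferon response at −0.28 and 0.75, and the luminal epithelium at −0.38 and 1.18.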

How the data were processed

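RNA of Cd11b-sorted mammary cells was hybridised to Affymetrix mouse arrays after amplification in 2 cycles, per the labels' protocols. The authors deposited MAS5 signal intensity per probe set, per the submitters' processing notes, linear and scaled so that the mean without the lowest and highest 2% was 500 on each array; version and genome build are not given in the sources used here, and no detection calls were used. Of 45101 probe sets, 64 controls, 932 with several symbols and 9160 with none were left out, and 34945 had 1 symbol. Values were log2(signal + 30.8), the offset being the 25th percentile. Probe sets brighter than the median of the array on 2 or more arrays were kept, and the brightest per gene was used, giving 13083 genes. Log2 differences on this scale understate those of dim genes.

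Tests used limma 3.58.1 under R 4.3.3, with an intensity trend in the moderated variance, on all 8 arrays with 4 group means, 4 residual degrees of freedom and a median prior of 6.33, two-sided, Benjamini-Hochberg over all genes. Named genes were those with the smallest p without pool overlap (12 a direction, 10 more among mean signals of 2000 or above, 5 for the difference from controls), up to 6 per list, and Fgfr1, Csf1r, Adgre1, Itgam and Cx3cr1; some were left out for length. The members and lists were chosen with earlier results of these data known. Alternatives were other normalizations, offsets, filters, probe set rules, variance models, blocks and leaving out pools; the actin ratio as a covariate was chosen after seeing the data. The fit was also run on 10 simulated sets with 200 changed genes, with 3.3 false calls on average. The means and spreads of these sets came from the fit to the real arrays. For arrays, their number limits the precision. Promoters came from RefSeq's table, and figures from Python 3.11.15 with matplotlib 3.10.9.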

Additional observations from a re-analysis of the deposited data

Results flagged for a closer look

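A pair of gene lists had transgenic pools that moved wholly one way between 48 hours and 4 weeks and control pools that moved wholly the other way; the difference between the time courses was not tested for a list. The median of the matrix genes' differences between the time courses was 0.90, with levels of −0.11 and −0.13, then 0.12 and 0.43 in transgenic pools and −0.14 and 0.06, then −0.28 and −0.19 in control pools. For 15 genes of iron and heme handling that median was −0.25, and the transgenic median of −0.20 was −0.06 without transgenic 4 weeks pool 2, with 11 of 15 lower at 4 weeks in transgenic pools and 11 of 15 higher in control pools.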

How the results depend on the processing

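In transgenic pools 0 genes passed under quantile normalization, an offset at the median or none, probe sets taken separately, the filter dropped or set at the 75th percentile, the mean of a gene's probe sets, no trend, array weights, the replicate block, the transgenic arrays alone, a threshold of 0.10 and the actin ratio as a covariate. Leaving out 1 pool gave 0 to 1: Nrip2 passed, at a log2 difference of 3.64 with adjusted p = 0.0448 in limma, without transgenic 48 hours pool 2, and its difference was −0.189 without pool 1 of that group (1.72 with all, its 48 hours pools being at 2798 and 40051). It is named for this call, after its values were seen. The difference between the time courses gave 0 in each of these settings that could be run and 0 to 1 on leaving out 1 pool, the 1 without transgenic 48 hours pool 2. The control count of 1 became 0 with the filter at the 75th percentile, the mean of probe sets, no trend, array weights or the control arrays alone, 2 at a threshold of 0.10, 4 with the replicate block, 7 with the actin ratio, and 0 to 7 without 1 pool (7 without control 4 weeks pool 2). Pool numbers were not taken to pair the samples, since deviations of same-numbered pools did not correlate above 0.1 between all groups: r was −0.0845 to 0.0241 for the pairs with control 48 hours pools and 0.118, 0.133 and 0.121 among the other 3 groups. The heat shock list stood higher in pool 2 than in pool 1 in each of the 4 groups (−0.25 and 0.34, −0.27 and 0.43 in transgenic pools, −0.38 and 0.23, 0.03 and 0.16 in control pools), and its median in transgenic pools was 0.04, or −0.25 without transgenic 4 weeks pool 2.

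List medians ranged, without 1 pool, from 0.199 to 0.611 (dendritic), −0.892 to −0.0828 (luminal), 0.208 to 0.531 (matrix), −0.465 to −0.218 (neutrophil) and −0.577 to −0.145 (interferon). With the filter at the 75th percentile the matrix median was 0.278 and the neutrophil median −0.456, over fewer genes. Single genes changed sign in few settings: Birc3 to −0.00374 with the mean of probe sets, Fgfr1 to −0.0127 with the actin ratio, and, without 1 pool, Ccl3 (−0.132 to 0.709), Cd80 (−0.0125 to 0.439), Cd86 (−0.173 to 0.769), Csf1r (−0.0614 to 0.104), Ctss (−0.0303 to 0.286), Cx3cr1 (−0.275 to 0.485) and Mmp2 (−0.187 to 1.18). The cause was not tested. Unadjusted calls in transgenic pools were 493 with no filter, 106 with the 75th percentile filter, 503 over all probe sets and 501 without transgenic 4 weeks pool 1, against 285.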
